A study of Mus musculus with 4 samples.

Results

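The insulin-like growth factor (IGF) axis was examined after knockdown of Eva1 in NSCL61, a line of mouse glioma-initiating cells. The axis was taken as 10 genes: the ligands Igf1 and Igf2, the receptors Igf1r and Igf2r, and the binding proteins Igfbp2 to Igfbp7. Its members were the probes whose gene symbol in the platform annotation was one of these names, which gave 10 probes, 1 for each gene, among 23473 probes on the chip. All 10 had a value on every array and were tested, among 13765 genes tested in all. NSCL61 was made from p53-deficient neural stem cells by expressing an activated HRas. Per the labels the source is brain of C57BL6 mice at stage P0, and all 4 arrays share this line.

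The Eva1 shRNA group held 2 arrays of NSCL61 cells carrying a short hairpin RNA, which the series title assigns to Eva1. The control group held 2 arrays titled with the line name alone, taken as the control hairpin of the series title. Transfected cells had been selected with hygromycin, for 1 week in one field of the labels and 2 weeks in another, and the labels do not state the selection of the control cells. Whether replicate arrays were of separate cultures is not stated, so that the spread behind each p-value is that of these samples and may be technical. The comparison bears on what Eva1 knockdown changes, in a series concerned with the proliferation of glioma-initiating cells.

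IGF1 and IGF2 are secreted peptides that bind the receptor tyrosine kinase IGF1R and drive growth and survival through the PI3K-AKT and RAS-MAPK relays. IGF2R has no kinase, carries IGF2 to the lysosome for breakdown and also sorts lysosomal enzymes tagged with mannose 6-phosphate. The binding proteins hold IGFs outside the cell, where they can withhold or deliver them, and proteases that cut the binding proteins release the ligand. In brain, IGF1 and IGF2 support neural stem and progenitor cells, and IGFBP2 is known as a gene raised in high-grade glioma.

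Messenger RNA was measured on 1-colour 3D-Gene chips as intensities in arbitrary units, scaled by the authors to a median near 25 on each array. Arrays were quantile normalized on the log2 scale to give log2 levels, and each log2 change is the Eva1 shRNA mean minus the control mean. A gene is said to have risen or fallen where limma's two-sided test gave an adjusted p under 0.05 (Benjamini-Hochberg over all 13765 genes). The target, Mpzl2 (listed under its older name Eva1), had intensities of 8.20 and 6.21 in Eva1 shRNA cells, against 55.0 and 54.4 in control cells. Its log2 change was -3.12 with a standard error (SE) of 0.16, or -1.71 once 16 intensity units were added to every value to damp the changes of dim probes. Replicate arrays correlated at r = 0.994 (Eva1 shRNA) and 0.991 (control) across genes, which are not independent replicates.

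The binding proteins carried most of the change in the axis. Of the 6 binding protein genes, Igfbp7 and Igfbp2 rose, Igfbp3, Igfbp4 and Igfbp5 fell, and Igfbp6 did not pass the test. Among ligands and receptors, Igf2r fell, while Igf1, Igf2 and Igf1r did not pass. Thus 2 members rose and 4 fell. Over all genes tested, 12.5% rose and 13.5% fell, 26.0% in either direction. The median log2 change of the 10 members was -0.16, against -0.01 over all genes. The median size of the change, without its sign, was 0.99 for the members and 0.36 for all genes. At least 2-fold differences were found for 5 of the 10 members and for 12.1% of all genes. The members were chosen with earlier results of these data known, so these comparisons describe the members and test nothing. In whole cultures, fewer cells of a kind and less RNA per cell cannot be told apart.

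**Figure D1:**
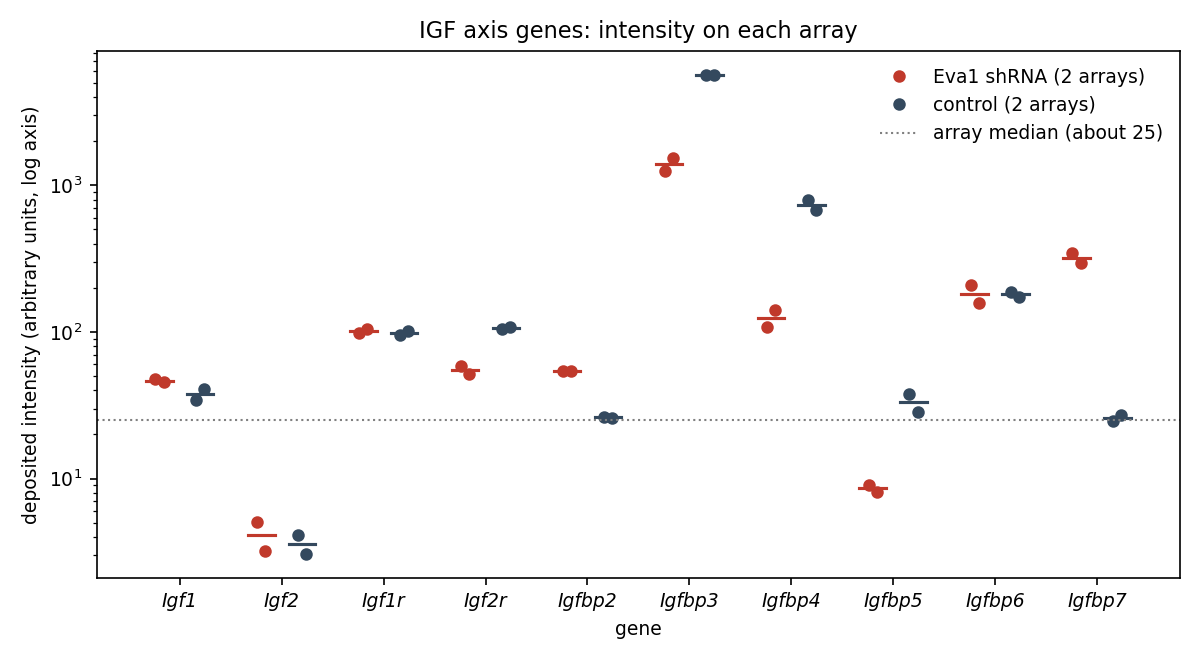
Deposited intensity (arbitrary units, log axis) of each of the 10 genes on the 2 Eva1 shRNA arrays (red) and the 2 control arrays (dark blue), with points for arrays, short lines for group means and a dotted line at the array median. Igfbp7 and Igfbp2 sit higher in Eva1 shRNA cells, Igf2r, Igfbp3, Igfbp4 and Igfbp5 lower, and Igf2 lies near the floor of the arrays in both groups.

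Neither ligand gene passed the test. Igf1, which encodes the ligand induced by growth hormone in many tissues, had intensities of 47.5 and 45.6 in Eva1 shRNA cells, against 34.3 and 40.9 in control cells. After normalization the groups did not overlap, with log2 levels of 5.45 ± 0.01 and 5.33 ± 0.13 (SD, n = 2 each), as was true of 66.7% of all genes. The log2 change of Igf1 was 0.12, with a 95% interval from -0.25 to 0.49 (limma, adjusted p = 0.578). This interval leaves room for a 1.40-fold rise.

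Igf2, the fetal growth factor gene expressed from the paternal copy, had intensities of 5.08 and 3.18 in Eva1 shRNA cells, against 4.10 and 3.06 in control cells. These arrays went down to 1.19 to 1.44 units, and probes that were blank on some arrays had mean intensities of up to 4.14 at their 95th percentile. The Igf2 signal was therefore in or near the range where cells were left blank, and the groups overlapped. The fitted log2 change was -0.01 with a 95% interval from -0.71 to 0.69 (limma, adjusted p = 0.978), the widest interval of the 10 genes, and a change within it was not detectable here.

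The receptor genes differed from each other. Igf1r, the signalling receptor, had intensities of 98.2 and 104.5 in Eva1 shRNA cells, against 95.1 and 101.0 in control cells. Its deposited values overlapped. After quantile normalization its log2 levels were 6.56 ± 0.11 and 6.71 ± 0.04 (SD, n = 2 each) and no longer overlapped. For Igf1r the log2 change was -0.15 (95% interval -0.51 to 0.21; limma, adjusted p = 0.487), and 0.05 with the authors' scaling alone. The lower bound of that interval is a 1.42-fold fall.

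Igf2r, the receptor gene for IGF2 clearance and lysosomal enzyme sorting, fell. It had intensities of 58.4 and 51.6 in Eva1 shRNA cells, against 104.8 and 107.5 in control cells. Both Eva1 shRNA arrays lay below both control arrays, and the gap was larger than the spread within either group. Log2 levels averaged 5.69 ± 0.08 in Eva1 shRNA cells and 6.83 ± 0.01 in control cells (SD, n = 2 each). Igf2r was 2.19-fold lower (95% interval 1.72 to 2.79), a log2 change of -1.13 with an SE of 0.14 (limma, adjusted p = 0.00536). Larger falls were seen for 5.31% of all genes.

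The 250 bases upstream of the RefSeq start of each gene that rose or fell are printed so that the starts of the genes moving in opposite directions can be set side by side (build GRCm38.p6, from RefSeq; 5′ to 3′ on the gene's own strand). Capitals mark matches on either strand to 6 motifs. The first is TATAAA, where the basal transcription machinery can bind. The next is GGGCGG, the core bound by SP1. CACGTG is an E-box, and ACGTG, contained in it, is a core of hypoxia response elements. The last are TGANTCA, the AP-1 site, and GTAAACA, which FOXO factors bind. RefSeq gives 2 starts for Igfbp2, and the one further upstream is shown.
Igfbp7, chr5:77408046-77408295, minus strand: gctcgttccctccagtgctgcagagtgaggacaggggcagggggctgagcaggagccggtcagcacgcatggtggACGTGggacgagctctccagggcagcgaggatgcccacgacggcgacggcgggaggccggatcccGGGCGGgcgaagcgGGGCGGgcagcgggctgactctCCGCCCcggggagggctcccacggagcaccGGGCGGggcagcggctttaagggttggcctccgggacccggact
Igfbp2, chr1:72824230-72824479, plus strand: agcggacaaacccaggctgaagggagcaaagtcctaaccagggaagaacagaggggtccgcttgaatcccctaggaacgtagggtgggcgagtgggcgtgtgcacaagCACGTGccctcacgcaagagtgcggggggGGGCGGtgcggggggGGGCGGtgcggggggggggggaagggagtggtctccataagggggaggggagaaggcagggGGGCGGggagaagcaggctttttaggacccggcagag
Igfbp3, chr11:7213924-7214173, minus strand: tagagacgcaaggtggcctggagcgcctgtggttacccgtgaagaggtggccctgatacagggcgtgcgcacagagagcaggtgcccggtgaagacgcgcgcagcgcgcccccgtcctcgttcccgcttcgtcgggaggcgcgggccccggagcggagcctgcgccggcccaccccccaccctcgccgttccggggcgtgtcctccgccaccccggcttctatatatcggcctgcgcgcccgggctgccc
Igfbp4, chr11:99040994-99041243, plus strand: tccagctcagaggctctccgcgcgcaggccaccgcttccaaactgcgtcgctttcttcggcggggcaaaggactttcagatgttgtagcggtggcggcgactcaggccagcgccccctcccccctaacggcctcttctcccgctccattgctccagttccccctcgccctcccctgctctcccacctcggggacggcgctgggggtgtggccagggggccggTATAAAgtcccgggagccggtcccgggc
Igfbp5, chr1:72874866-72875115, minus strand: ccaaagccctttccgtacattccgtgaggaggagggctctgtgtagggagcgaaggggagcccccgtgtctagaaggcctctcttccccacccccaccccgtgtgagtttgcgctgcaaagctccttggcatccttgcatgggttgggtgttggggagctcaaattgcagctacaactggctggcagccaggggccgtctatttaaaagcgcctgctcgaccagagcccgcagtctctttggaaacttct
Igf2r, chr17:12769707-12769956, minus strand: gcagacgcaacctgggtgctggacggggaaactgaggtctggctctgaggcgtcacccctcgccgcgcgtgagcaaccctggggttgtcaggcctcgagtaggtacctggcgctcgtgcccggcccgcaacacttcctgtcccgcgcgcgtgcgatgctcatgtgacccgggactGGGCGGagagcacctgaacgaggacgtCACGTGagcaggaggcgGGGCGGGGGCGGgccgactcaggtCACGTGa

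The 2 genes that rose both hold GGGCGG in this window, Igfbp2 with 3 matches and Igfbp7 with 4, and none of Igfbp3, Igfbp4 and Igfbp5, which fell, holds it. Igf2r, which also fell, holds 3 matches, so the motif does not follow the direction over the 6 genes. For Igfbp2 the matches depend on the start chosen. The window at its other start, which is not printed, holds 0 matches to this motif and 0 to the E-box. GGGCGG was present in 32.7% of all 32851 promoter windows of this length. Igfbp4 has TATAAA with its first base 28 bases upstream of the start, a motif found in 12.4% of windows. CACGTG occurs in Igfbp2 (1 match) and Igf2r (2 matches) and in 6.02% of windows. ACGTG outside CACGTG occurs in Igfbp7 (1 match), and ACGTG of any kind in 16.6% of windows. TGANTCA (6.75% of windows) and GTAAACA (3.17% of windows) match none of the 6 printed sequences, whereas the other Igfbp2 start has 1 TGANTCA match. All 6 windows had a G and C content above the median window (52.4%), between 58.8% for Igfbp5 and 74.0% for Igfbp7. A match describes these letters and does not show binding.

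Igfbp3, Igfbp4 and Igfbp5 fell, with fitted log2 changes between -2.74 and -2.16. Igfbp3 encodes the main carrier of IGFs in serum. It had intensities of 1246 and 1542 in Eva1 shRNA cells, against 5683 and 5657 in control cells. The Eva1 shRNA arrays differed more from each other than the control arrays did, by far less than the gap between groups. Log2 levels averaged 10.36 ± 0.27 in Eva1 shRNA cells and 12.59 ± 0.01 in control cells (SD, n = 2 each). Igfbp3 was 4.68-fold lower (95% interval 3.43 to 6.39), with a log2 change of -2.23 (SE 0.18; limma, adjusted p = 0.00207).

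Igfbp4 encodes a binding protein that withholds IGFs until the protease pappalysin cuts it. It had intensities of 107.4 and 142.0 in Eva1 shRNA cells, against 799 and 680 in control cells. The groups were far apart, and the largest fall of the 10 genes was this one, with a log2 change of -2.74 (SE 0.20; limma, adjusted p = 0.00168). That is 6.66-fold lower (95% interval 4.66 to 9.51), the fall of rank 51 among all 13765 genes. Log2 levels averaged 6.85 ± 0.33 in Eva1 shRNA cells and 9.59 ± 0.14 in control cells (SD, n = 2 each).

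Igfbp5, whose protein binds matrix and is the most conserved of the family, had intensities of 9.05 and 8.09 in Eva1 shRNA cells, against 37.9 and 28.5 in control cells. Both Eva1 shRNA values lay under the array median of about 25 and both control values above it. Its log2 levels were 2.98 ± 0.06 in Eva1 shRNA cells and 5.13 ± 0.34 in control cells (SD, n = 2 each). The log2 change was -2.16 (SE 0.20; limma, adjusted p = 0.00271), 4.45-fold lower (95% interval 3.15 to 6.30). The size depended on the dim signal, since the log2 change was -1.10 with 16 units added, and the call held (adjusted p = 1.774e-04).

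Igfbp7 and Igfbp2 rose. Igfbp7 encodes a secreted protein of the vessel wall and stroma that binds IGFs weakly. It had intensities of 347 and 293 in Eva1 shRNA cells, against 24.6 and 27.1 in control cells. Its control values stood near the array median, and its Eva1 shRNA values lay well above them. Log2 levels averaged 8.23 ± 0.14 in Eva1 shRNA cells and 4.79 ± 0.06 in control cells (SD, n = 2 each). The log2 change was 3.44 (SE 0.15; limma, adjusted p = 0.000874), 10.9-fold higher (95% interval 8.38 to 14.1), the rise of rank 30 among all 13765 genes.

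Igfbp2, which encodes an IGF carrier made by fetal brain and by gliomas, had intensities of 54.2 and 53.7 in Eva1 shRNA cells, against 26.4 and 25.9 in control cells. The arrays of each group lay close together and the groups did not overlap. Igfbp2 was 1.81-fold higher after normalization (95% interval 1.42 to 2.30), with a log2 change of 0.86 (SE 0.14; limma, adjusted p = 0.0114). This was the one call among the members that needed both Eva1 shRNA arrays. Leaving out array 1 of that group gave a log2 change of 0.89 (adjusted p = 0.0649) and leaving out array 2 gave 0.83 (adjusted p = 0.0717).

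Igfbp6, whose protein prefers IGF2 over IGF1, had intensities of 208.7 and 156.6 in Eva1 shRNA cells, against 188.5 and 172.4 in control cells. The 2 control values lay between the 2 Eva1 shRNA values. Its log2 change was -0.18 (95% interval -0.63 to 0.27; limma, adjusted p = 0.508).

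**Figure D2:**
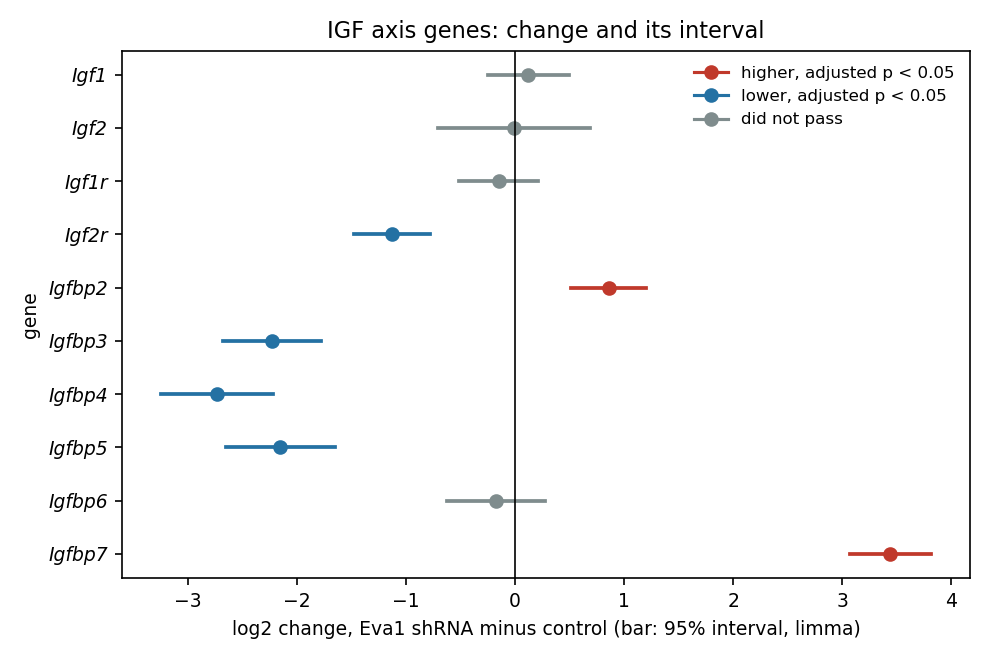
Log2 change (Eva1 shRNA minus control) of the 10 genes as points with 95% intervals from limma, coloured by whether the gene rose, fell or did not pass at an adjusted p under 0.05. The intervals of Igf1, Igf2, Igf1r and Igfbp6 cross 0, and those of the other 6 genes lie to one side of it, from -2.74 for Igfbp4 to 3.44 for Igfbp7.

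The directions of the 6 genes that rose or fell held under all 12 alternatives to the processing. The calls of 5 of them held as well, the exception being Igfbp2. Igf2r had log2 changes from -1.19 to -0.93 over the alternatives, Igfbp3 from -2.41 to -2.02 and Igfbp4 from -2.98 to -2.51. Igfbp7 ranged from 2.86 to 3.63 and Igfbp2 from 0.60 to 1.04. The highest adjusted p over the alternatives was 0.0421 for Igf2r, without Eva1 shRNA array 2. For Igfbp3, Igfbp4, Igfbp5 and Igfbp7 it was 0.0222, 0.0223, 0.0266 and 0.0193, each with blank cells filled.

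**Figure D3:**
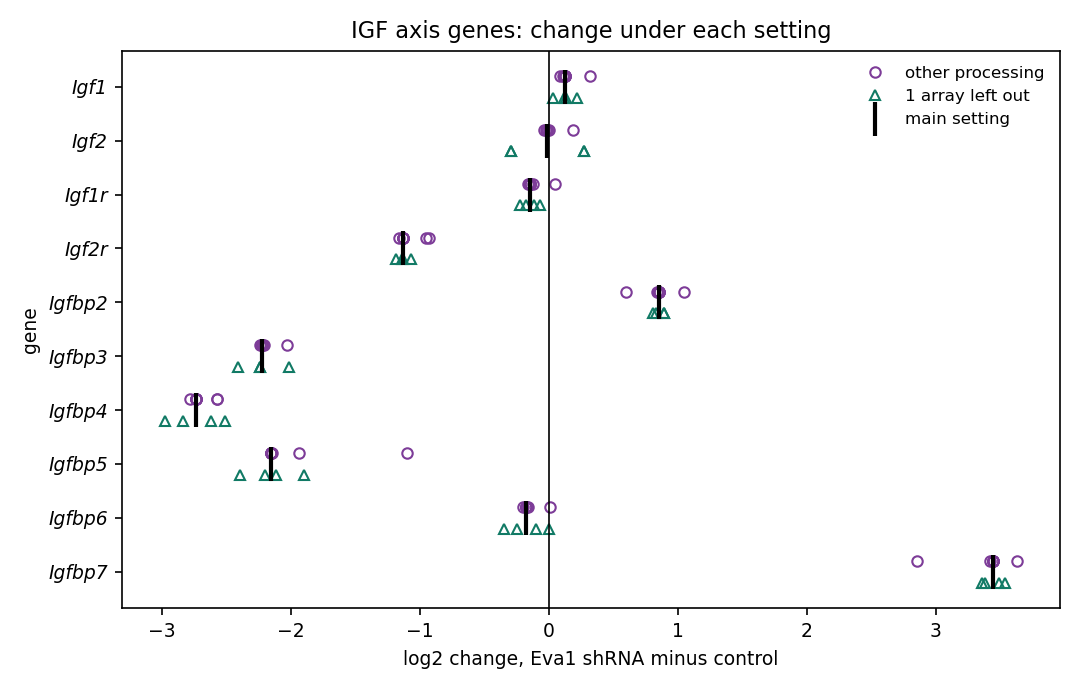
Log2 change of the 10 genes in the main setting (black bars), under 8 other ways of processing (purple circles) and with 1 of the 4 arrays left out (green triangles). Igfbp5 shows the widest span among genes that rose or fell, from -2.39 to -1.10, and Igf2, Igf1r and Igfbp6 straddle 0.

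Other genes of the pathway were read from 5 lists with 73 genes, of which 61 were tested, 8 were blank on some array and 4 had no named probe. Of the 61, 4 rose (6.56%) and 9 fell (14.8%), against the 12.5% and 13.5% of all genes. These counts depended on the processing. With the authors' scaling 10 rose and 8 fell, with 16 units added 8 rose and 20 fell, and with eBayes trend 8 rose and 18 fell. Of the 50 still tested without the dimmest 25% of probes, 8 rose and 18 fell. Calls over all 13765 genes moved as well, from 1720 that rose and 1856 that fell in the main setting. They were 2714 and 1295 with the authors' scaling, 2445 and 2469 with 16 units added, and 2490 and 2510 with eBayes trend. Of 10679 genes tested without the dimmest probes, 2253 rose and 2284 fell. The median log2 change of the 61 pathway genes was -0.21, and 8 of their 13 calls held under every alternative.

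Outside the cell, both stanniocalcin genes changed, in opposite directions, and a protease gene fell. Of 8 tested members of the list of extracellular partners and proteases, 1 rose and 2 fell, with a median of -0.09. That is 12.5% and 25%, against 12.5% and 13.5% of all genes. Stc2, whose protein inhibits pappalysins, had intensities of 52.3 and 46.2 in Eva1 shRNA cells, against 2.17 and 1.89 in control cells. Its log2 change was 4.45 (limma, adjusted p = 0.000874). The control values lay in the range of probes blank on some arrays, so its size is unsettled, and with 16 units added the log2 change was 1.78. Stc1, its relative, also a pappalysin inhibitor, had intensities of 28.2 and 25.8 in Eva1 shRNA cells, against 258.6 and 290.4 in control cells, a log2 change of -3.53. The pappalysin gene Pappa was blank on 2 arrays, with values of 1.63 on an Eva1 shRNA array and 1.82 on a control array. Htra1, a secreted serine protease gene whose product cuts binding proteins, had 397 and 416 in Eva1 shRNA cells, against 784 and 797 in control cells. Its log2 change was -1.12 (adjusted p = 0.00601). Igfbp1, the family member next to Igfbp3 on the chromosome, had a log2 change of -0.05 and did not pass (adjusted p = 0.894).

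Among receptors and adaptors, the insulin receptor substrate gene Irs2 rose and 3 genes of growth hormone and insulin signalling fell. Of 16 tested members, 1 rose, 3 fell and 12 did not pass, with a median of -0.10. The shares that rose and fell were 6.25% and 18.8%, against 12.5% and 13.5% of all genes. Irs2, a docking protein for both insulin and IGF1 receptors, had intensities of 518 and 364 in Eva1 shRNA cells, against 109.7 and 103.1 in control cells. It was 3.58-fold higher, a log2 change of 1.84 (SE 0.19; limma, adjusted p = 0.00374), while Irs1 had 0.41 without passing (adjusted p = 0.220). Socs2, an inhibitor of growth hormone signalling, had a log2 change of -2.07 (adjusted p = 0.00219), with 36.5 and 38.0 units in Eva1 shRNA cells, against 151.8 and 121.5 in control cells. Ghr, the growth hormone receptor gene, had -1.36 (adjusted p = 0.0121). That call was lost without Eva1 shRNA array 1 (0.0642), without control array 1 (0.0556) and with blank cells filled (0.0556). Grb14, an adaptor that inhibits the insulin receptor, had -1.15 (adjusted p = 0.00517). The insulin receptor gene Insr was dim, with 4.67 and 4.06 units in Eva1 shRNA cells, against 3.36 and 3.60 in control cells, and its log2 change of 0.14 did not pass (adjusted p = 0.508).

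Of 25 tested genes of the PI3K-AKT-FOXO-TSC relay, 1 rose, 3 fell and 21 did not pass, with a median of -0.07. These shares, 4% and 12%, stand against 12.5% and 13.5% of all genes, and 11 of the 25 had an unadjusted p under 0.05. At least 26.0% of all genes had such a p, since that share passed even after adjustment. The full share is larger and was not counted, so whether 11 of 25 stands above it is not shown. Pik3cd, a catalytic subunit of PI3K, fell most, with 17.0 and 15.1 units in Eva1 shRNA cells, against 48.8 and 48.8 in control cells. The log2 change of Pik3cd was -1.80 (SE 0.14; limma, adjusted p = 0.00181), or -1.14 with 16 units added. Pik3r2, a regulatory subunit, had -0.76 (adjusted p = 0.0190), lost without control array 1 (0.0743) and without either Eva1 shRNA array (0.0879 without array 1, 0.102 without array 2). Inppl1, a lipid phosphatase that opposes PI3K, had -0.58 (adjusted p = 0.0371), and Foxo3, a factor held out of the nucleus by AKT, had 0.59 (adjusted p = 0.0448). Inppl1 lost its call under 6 of 12 alternatives and Foxo3 under 9 of 11, whichever array was left out among them. Their adjusted p reached 0.169 for Inppl1, without Eva1 shRNA array 1, and 0.294 for Foxo3, whose log2 change was 0.14 with 16 units added. Akt1 had a log2 change of 0.54 (adjusted p = 0.0536), Akt2 0.04 (0.858) and Mtor -0.22 (0.290), none of which passed. Transcript levels of these kinases do not measure their activity.

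**Figure D4:**
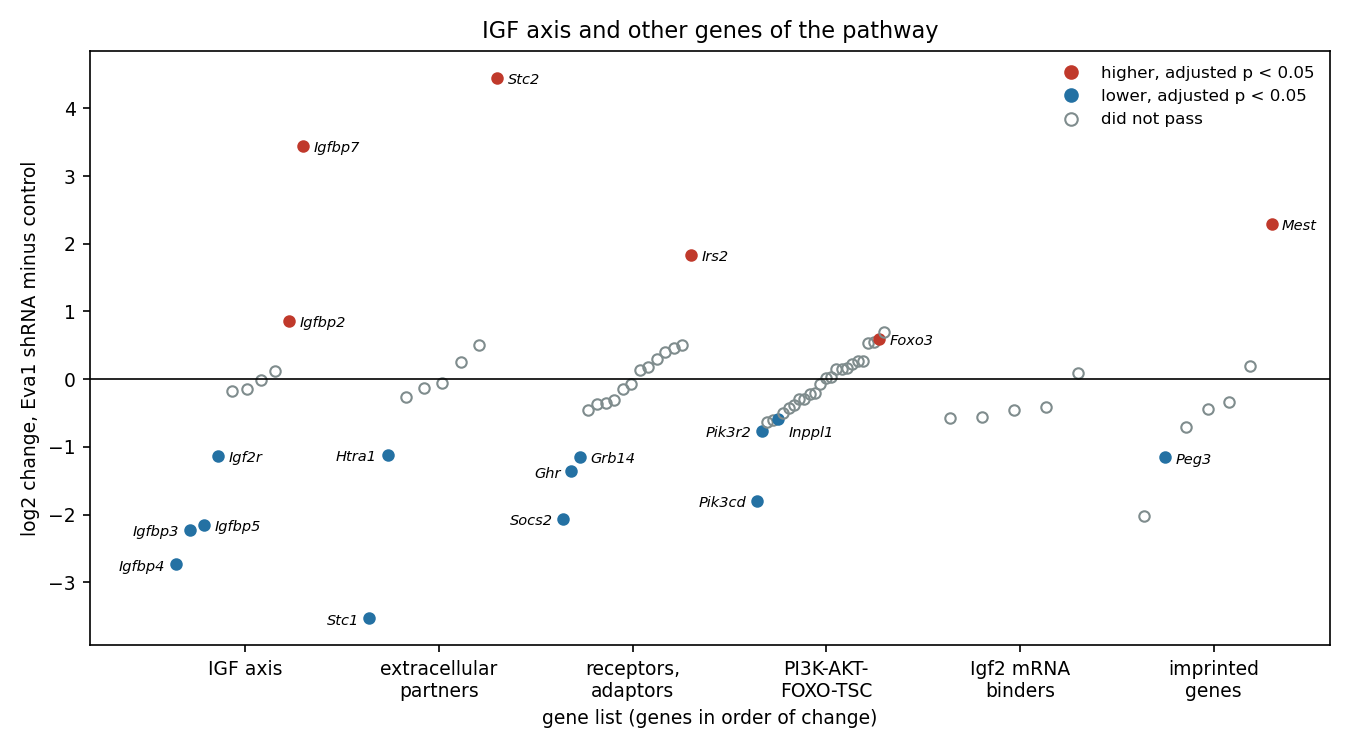
Log2 change (Eva1 shRNA minus control) of the tested genes in the IGF axis and in 5 lists of other pathway genes, each list in order of change, with genes that rose in red, genes that fell in blue and the rest as open grey circles. Stc2 at 4.45 and Stc1 at -3.53 bracket the plot.

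Of 5 tested genes for proteins that bind Igf2 mRNA or act with them, 0 passed (limma). An unadjusted p under 0.05 was found for 4 of them, all with negative changes. It was found for at least 26.0% of all genes, a lower bound, and the full share was not counted. Hmga2, a chromatin factor of fetal growth, had a log2 change of -0.56 (adjusted p = 0.0598) and Igf2bp3 -0.46 (adjusted p = 0.0618). Igf2bp1 and Lin28b had -0.57 and -0.41. Igf2bp2 was filled on 1 array.

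Of 7 tested imprinted genes, Mest rose and Peg3 fell, 14.3% in each direction, against 12.5% and 13.5% of all genes. The median log2 change of the 7 was -0.44. Among those that did not pass, Dcn had -2.02 (limma, adjusted p = 0.0532) and Meg3 had 0.19 (adjusted p = 0.373). The Eva1 shRNA arrays differed widely for Dcn, at 55.3 and 15.5 units. Mest, expressed from the paternal copy, had intensities of 81.8 and 88.0 in Eva1 shRNA cells, against 14.5 and 15.3 in control cells, a log2 change of 2.30 (SE 0.14; limma, adjusted p = 0.00116). Peg3, also paternally expressed, had 7.92 and 8.75 in Eva1 shRNA cells, against 18.9 and 13.4 in control cells, a log2 change of -1.15 (adjusted p = 0.0202). That change was -0.49 with 16 units added. Its call was lost with blank cells filled (0.0734), without control array 1 (0.0586) and without either Eva1 shRNA array (0.106 without array 1, 0.0695 without array 2). H19, the noncoding gene that shares its enhancers with Igf2, was blank on 1 array and had at most 2.97 units on the others. Plagl1, a zinc finger gene known to regulate Igf2 and H19, was blank on both control arrays and had 15.6 and 14.5 units in Eva1 shRNA cells, so that no change was fitted in the main setting.

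The genes next to each member on its chromosome were read as well. Igfbp2 and Igfbp5 are neighbours on chromosome 1 in the RefSeq order of protein-coding genes and moved in opposite directions, with log2 changes of 0.86 and -2.16. Rpl37a, on the other side of Igfbp2, had 0.35 without passing (adjusted p = 0.147). Beside Igfbp4, Tns4, a focal adhesion gene, fell with a log2 change of -1.47 (adjusted p = 0.00601), and Top2a, the replication-linked topoisomerase gene, had 0.28 (adjusted p = 0.189). Beside Igfbp7, Adgrl3 fell with -1.45 (adjusted p = 0.00769), opposite in direction, and Polr2b had 0.26 (adjusted p = 0.351). Of 13 tested neighbours that are not members, 4 fell and 0 rose (limma; 0 also had a positive change at an unadjusted p under 0.05), where 13.5% of all genes fell and 12.5% rose. The other 2 that fell, Spryd3 with -0.51 and Soat2 with -0.54, flank Igfbp6.

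The genes most like each changed member over the 4 arrays were found by the Euclidean distance of log2 levels after centring each gene on its mean. The nearest to Igfbp7 were Kctd15 and App, with log2 changes of 3.56 and 3.56. Rab3a and Bst2 were nearest to Igfbp4, with changes of -2.69 and -2.68, and Pcbd1 and Aim2 to Igfbp3, with -2.28 and -2.24. Arrb1 and Pgm2 were nearest to Igfbp5, Ndst2 and Man2b2 to Igf2r, and Fam111a and Tnk2 to Igfbp2. With 4 arrays in 2 groups, this likeness rests mainly on the size of the difference between groups.

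Markers of cell types were read beside these results. Of the neural stem markers, Nes had 8.67 ± 0.03 in Eva1 shRNA cells and 9.14 ± 0.02 in control cells (log2 level, SD, n = 2 each), Vim was bright in both groups, and Sox2 had no named probe. Of the 6 neural stem markers tested, 0 rose and 2 fell, while Nes, Vim, Msi1 and Olig2 did not pass (limma; 0 also had a positive change at an unadjusted p under 0.05). Prom1, of the same list, was blank on control array 2 and so was not tested. It had 11.8 and 9.76 units in Eva1 shRNA cells, against 3.25 on control array 1. The background for each marker list here is the 12.5% of all genes that rose and the 13.5% that fell. Fabp7, a fatty acid binding protein gene of radial glia, had 12.3 and 12.2 units in Eva1 shRNA cells, against 22.1 and 24.6 in control cells. Its log2 change was -1.15 (adjusted p = 0.00521), and -0.59 with 16 units added. Cd44 had a log2 change of -0.76 (adjusted p = 0.0210), and -0.28 with 16 units added. Cd44 was dim, at 12.3 units or less on every array, as was Olig2. Of the neuronal markers Tubb3 rose, with 0.84 (limma, adjusted p = 0.0443), while Map2 (-0.26) and Dcx (-0.11) did not pass. Of the macrophage markers Cd68 fell, with -1.17 (limma, adjusted p = 0.0108), while Aif1 (-0.09) and Csf1r (0.25) did not pass. Ptprc was blank on both control arrays and at most 1.74 units in Eva1 shRNA cells. Itgam was the reverse, blank on both Eva1 shRNA arrays and at most 2.48 units in control cells. Of 6 tested markers of fibroblasts, pericytes and smooth muscle, 3 rose (Acta2, Col1a2 and Pdgfrb), Rgs5 fell, and Col1a1 and Lum did not pass. Their summed intensity was 572 and 455 in Eva1 shRNA cells, against 117.3 and 119.3 in control cells, mostly from Acta2. Acta2 had 408 and 316 units in Eva1 shRNA cells, against 4.04 and 4.38 in control cells. With controls this close to blank probes, its log2 change of 6.22 has no settled size, and it was 4.10 with 16 units added. Of the 8 marker genes named here that rose or fell, Acta2 and Fabp7 passed under all 12 alternatives. The calls of Cd44, Col1a2 and Pdgfrb were lost whichever array was left out, and those of Tubb3, Cd68 and Rgs5 without at least 1 of the arrays. The median change of the 6 markers of fibroblasts, pericytes and smooth muscle was 0.20, with members on both sides of 0. Any part of such cells in the rise of Igfbp7 was not tested. The endothelial markers Pecam1, Cdh5 and Tek were each blank on 1 array and at most 4.46 units elsewhere, while Kdr had a log2 change of 0.14 and did not pass. The summed endothelial intensity was 17.9 and 22.0 in Eva1 shRNA cells, against 20.2 and 21.6 in control cells.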

How the data were processed

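The deposited intensity values of 4 one-colour chips were used. The authors left them linear and scaled each array to a median near 25, as the values show. Per the labels' protocols, total RNA was amplified and labelled with Cy5. How arrays were scanned and corrected for background, and why cells are blank, is not given in the sources used.

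Symbols came from the platform annotation (16631 of 23473 probes had 1) and were updated through RefSeq names (GRCm38.p6). The 19199 probes filled on all 4 arrays were log2 transformed. Array medians differed by 0.274, above the limit of 0.1, so arrays were quantile normalized (limma 3.58.1, R 4.3.3). The brightest probe stood for each gene. Groups were compared with lmFit and eBayes, with 2 residual degrees of freedom per gene, so the number of arrays limits the precision. The procedure was tested on simulated data. Named genes were all members, Mpzl2, pathway list members that passed, the 2 smallest p of a pathway list where none passed, and the 2 genes nearest to each changed member. Other genes were named after their values were seen. Members, lists and rules were chosen with earlier results of these data known. The same-numbered arrays of the groups did not deviate together (correlation -0.0247 across genes). The alternatives were other scalings, filters, a pseudocount, filled blank cells, a replicate block, eBayes with trend, probe means and each array left out. Figures used matplotlib 3.10.9 in Python 3.11.15.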

Additional observations from a re-analysis of the deposited data

How the results depend on the processing

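The counts of members that rose (2) and fell (4) were the same under every alternative that kept all 4 arrays, where without the dimmest 25% of probes Igf2 was not tested. With 1 array left out, 1 to 2 members rose, and the single one was Igfbp7 without either Eva1 shRNA array, while 4 fell in each case. Over all genes, 541 to 1145 rose and 730 to 1156 fell with 1 array left out, against 1720 and 1856 with all arrays. With the authors' scaling 2714 genes rose and 1295 fell, and the median change of all genes shifted to 0.18 from -0.01. Under that scaling Igf2 had 0.18, Igf1r 0.048 and Igfbp6 0.0044, opposite in sign to the main values, with none passing. With 1 array left out, Igf2 ranged from -0.30 to 0.27 and Igfbp6 from -0.35 to 9.948e-04. Of the other pathway genes, 10 rose with the authors' scaling, and 8 rose in each of 3 settings, namely eBayes trend, 16 units added and the dimmest 25% of probes left out. Those that fell numbered 18, 20 and 18 in these 3 settings. Over all genes, 2490, 2445 and 2253 rose and 2510, 2469 and 2284 fell in the same 3 settings. The cause of these differences was not tested. The replicate numbers of the labels were not found to pair the arrays, and with the replicate block 1471 genes rose and 1631 fell, with 2 and 4 members among them.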
